A study of Mus musculus with 12 samples.

Results

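The genes described here encode enzymes that bring pyruvate into the tricarboxylic acid (TCA) cycle, most enzymes of the cycle itself, and enzymes that oxidise fatty acids in mitochondria. They were 34 listed genes matched by mouse gene symbol. They were chosen by name and not by a threshold on any difference, but with earlier results of these data known. All 34 reached at least 1 FPKM (fragments per kilobase of transcript, scaled per library) in 3 or more of the 12 libraries. The deposited table held 54532 genes, of which 11335 passed that filter and were tested. RNA sequencing had been done on 4 groups of 3 libraries from wild-type mouse bone marrow cells grown in CMG, which supplies the macrophage growth factor M-CSF and was given to every group. Untreated macrophages (MA_NT) got no RANKL and no lipopolysaccharide (LPS), and LPS-treated macrophages (MA_LPS) got LPS at 100 ng/mL for 3 h on day 5. Untreated osteoclasts (OC_NT) were the same kind of cells differentiated with RANKL, the cytokine that drives osteoclast formation, given as 100 ng/mL in the sample source. LPS-treated osteoclasts (OC_LPS) had both RANKL and that dose of LPS. The labels name no sorting of osteoclasts from the cells that remained mononuclear, no sex or age, and do not say whether libraries of a group came from separate animals or cultures. The p-values therefore measure the spread between these libraries, which may be technical.

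Pyruvate dehydrogenase turns pyruvate into acetyl-CoA, citrate synthase joins acetyl-CoA to oxaloacetate, and the cycle then releases carbon dioxide and passes electrons to the respiratory chain. Long-chain fatty acids enter mitochondria on carnitine and are shortened by repeated cycles of dehydrogenation, hydration, a further dehydrogenation and thiolysis, with the electron transfer flavoprotein carrying part of the electrons. Osteoclasts are rich in mitochondria, and macrophages exposed to LPS are known for a rearranged TCA cycle in which citrate and itaconate build up.

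Promoter sequence was inspected because most of these genes stood together in the cell type comparison. RefSeq promoter windows (build GRCm38.p6, 250 bases before to 50 bases after an annotated start, 300 bases in all) were matched to 32 of the 34 genes, in 39 windows. The motif of nuclear respiratory factor 1 (NRF1, a regulator of genes for mitochondrial proteins), a GC-rich near-palindrome, was searched on both strands. It was found for 4 of the 32 genes, in 4 of their 39 windows (10.3%), and in 4.6% of all 32851 promoter windows of that length. The 4 windows that hold it are printed 5′ to 3′ with the match in capitals, which reads GCGCAGGCGC in Dld and Etfb, GCGCCTGCGC in Sucla2 and GCGCATGCGC in Etfdh.
Dld, chr12:31351422-31351721, minus strand: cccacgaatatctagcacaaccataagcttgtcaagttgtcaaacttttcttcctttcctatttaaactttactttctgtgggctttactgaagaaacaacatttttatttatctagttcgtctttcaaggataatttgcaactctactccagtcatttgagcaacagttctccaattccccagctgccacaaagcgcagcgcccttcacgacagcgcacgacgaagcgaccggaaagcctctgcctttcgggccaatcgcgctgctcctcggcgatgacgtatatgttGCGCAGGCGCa
Sucla2, chr14:73552536-73552835, plus strand: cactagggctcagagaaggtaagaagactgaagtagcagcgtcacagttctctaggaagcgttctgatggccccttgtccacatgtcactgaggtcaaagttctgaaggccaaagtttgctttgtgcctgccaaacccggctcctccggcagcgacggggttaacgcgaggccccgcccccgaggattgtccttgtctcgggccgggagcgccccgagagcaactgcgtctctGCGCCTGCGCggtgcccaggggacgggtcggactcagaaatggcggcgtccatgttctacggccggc
Etfb, chr7:43443822-43444121, plus strand: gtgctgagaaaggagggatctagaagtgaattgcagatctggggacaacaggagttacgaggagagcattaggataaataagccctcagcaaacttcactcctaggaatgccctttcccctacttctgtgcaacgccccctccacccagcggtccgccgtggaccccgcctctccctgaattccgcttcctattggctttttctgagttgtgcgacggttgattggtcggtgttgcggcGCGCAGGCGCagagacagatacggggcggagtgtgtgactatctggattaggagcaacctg
Etfdh, chr3:79628718-79629017, minus strand: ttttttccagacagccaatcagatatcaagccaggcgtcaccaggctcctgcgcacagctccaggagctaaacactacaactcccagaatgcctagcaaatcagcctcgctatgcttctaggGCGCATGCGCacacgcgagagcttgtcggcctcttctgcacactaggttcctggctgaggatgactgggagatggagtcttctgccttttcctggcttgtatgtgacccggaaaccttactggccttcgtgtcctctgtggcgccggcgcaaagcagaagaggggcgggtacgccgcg
The match began 40 bases after the annotated start in Dld, 17 bases before it in Sucla2, 11 bases before it in Etfb and 128 bases before it in Etfdh. The motif of the oestrogen-related receptors (TCAAGGTCA), the direct repeat bound by PPAR with RXR and the SREBP motif were found in 0 of the 32 genes, against 0.423%, 0.0396% and 0.234% of all windows. The NF-kB motif was found for Dlat alone of the 32 (1.63% of all windows) and the interferon-stimulated response element for Suclg2 alone (3.44% of all windows). These are matches of letters in these windows and say nothing of binding.

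The libraries held between 15651770 and 20281456 reads assigned to genes, recovered as whole reads from the deposited values, and a member gene had between 63 and 24624 reads in a library. The marker genes matched the labels. Summed over 10 osteoclast markers, levels were 16.3 to 29.0 FPKM in the macrophage libraries and 29220 to 32220 FPKM in the osteoclast libraries. The sum of 8 macrophage markers was 2101 to 3244 FPKM in macrophages and 1730 to 1830 FPKM in osteoclasts. Most of the osteoclast sum was Cd68, whose mean was 670.2 FPKM in untreated macrophages and 1402 FPKM in untreated osteoclasts. The other 7 were lower in osteoclasts, from Csf1r at 441 and 310.2 FPKM to Adgre1 at 428 and 33.1 FPKM and Cx3cr1 at 142 and 0.486 FPKM. Markers of stromal cells summed to 24.5 to 34.2 FPKM in the macrophage libraries and 0.288 to 0.858 FPKM in the osteoclast libraries, with Lum at 0 throughout. Nearly all of the macrophage sum was Col1a1 and Col1a2, at means of 19.9 and 8.59 FPKM without LPS. Dcn went the other way, at 0 in every macrophage library and at a mean of 0.171 FPKM in untreated osteoclasts. Both adipocyte markers were at 0 in every library. The 4 dendritic cell markers summed to 0.259 to 0.280 FPKM in untreated and 5.26 to 5.98 FPKM in LPS-treated macrophages, nearly all of it Xcr1, and the 5 neutrophil markers to 1.15 to 1.59 and 1.45 to 4.36 FPKM; their part in the LPS differences was not tested. In bulk RNA a change in the make-up of the cells and a change in RNA per cell cannot be told apart. The deposited scaling sets the typical gene equal between libraries. Under TPM scaling, which gives every library the same total, the median log2 difference over all genes moved from 0.023 to -0.55 for LPS in macrophages, from 0.00 to -0.38 for osteoclast against macrophage without LPS, from -0.016 to 0.12 for the same with LPS, and from -0.012 to 0.51 for the interaction. The 3 OC_LPS libraries differed most among themselves, by 7.94 to 12.55 chi-square units per degree of freedom, and OC_LPS replicate 2 had the lowest library weight in limma, at 0.493. Mdh1 was at 429 FPKM in OC_LPS replicate 1 against 365 and 354 FPKM in the other 2.

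Nearly the whole pathway was at a higher level in osteoclasts than in macrophages, both without LPS. Of the 34 genes, 31 were called higher, Idh1 and Cpt1a were called lower, and Hadh did not pass the test, by limma at an adjusted p below 0.05. Over all genes tested, 77.8% were called in this comparison, 38.8% as higher, while 91.2% of these genes were higher. Their median log2 difference was 1.62, against 0.00 over all genes. Summed over the 34 genes, levels were 644, 665 and 672 FPKM in untreated macrophages and 2414, 2456 and 2454 FPKM in untreated osteoclasts, 3.70-fold more. As a share of all FPKM in a library the sum was 0.255% ± 0.00654 in macrophages and 0.707% ± 0.00963 in osteoclasts (SD, n = 3), 2.77-fold more. The share of reads on the mitochondrial chromosome moved in the same direction, from 1.57% ± 0.0585 in untreated macrophages to 5.59% ± 0.278 in untreated osteoclasts (SD, n = 3), and its part in these values was not tested.

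**Figure D1:**
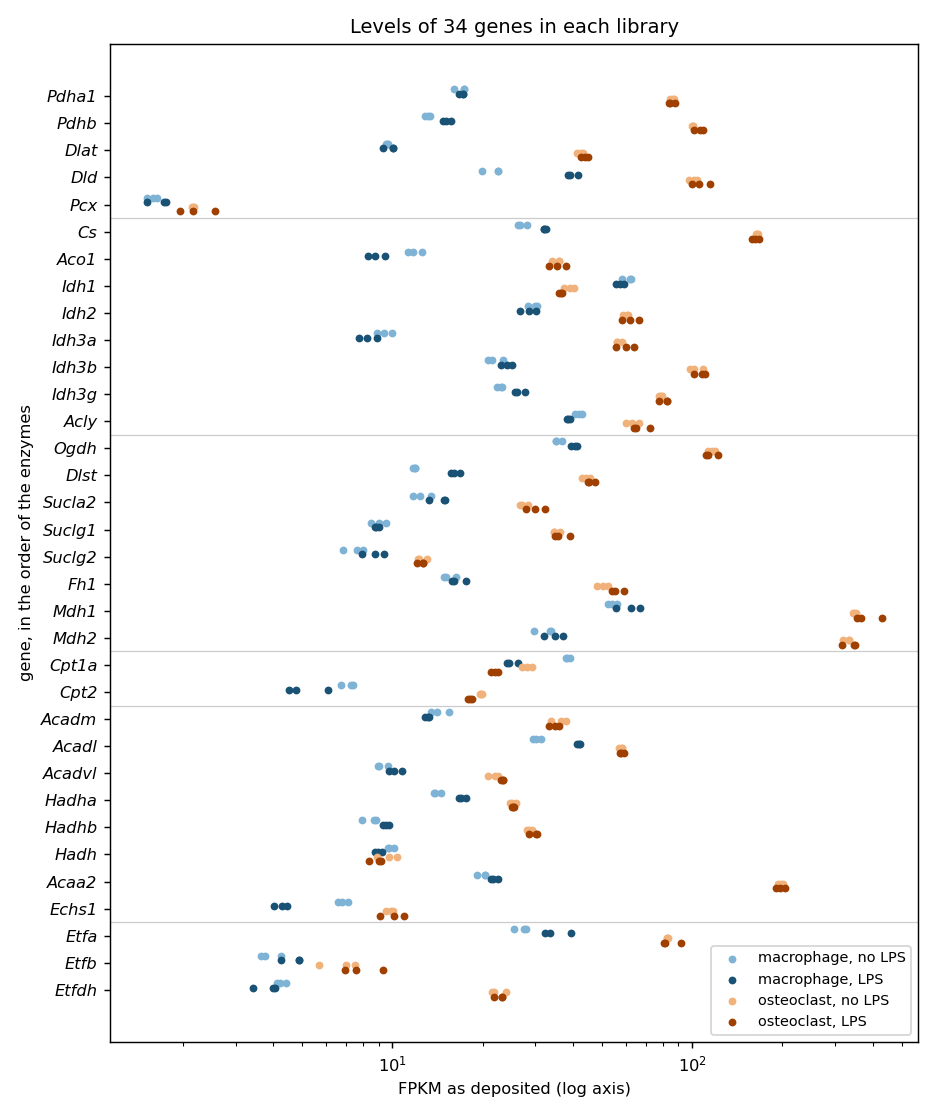
Deposited FPKM of the 34 genes in each of the 12 libraries, on a log axis, with 1 row per gene in the order of the enzymes and 1 point per library, coloured by group. Osteoclast libraries lie to the right of the macrophage libraries for most genes. Idh1 lies on the left, Cpt1a lies on the left when compared either without LPS or with it, and Hadh overlaps.

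All 5 genes of pyruvate entry were higher in osteoclasts. Pdhb (ENSMUSG00000021748, chromosome 14, 8165996 to 8173025; GRCm38), the beta subunit of the pyruvate dehydrogenase E1 enzyme, stood at 13.1, 13.3 and 12.8 FPKM in the 3 untreated macrophage libraries and 101, 101 and 99.7 FPKM in the 3 untreated osteoclast libraries. That was a 7.66-fold difference, with a log2 difference (on log2(FPKM + 1), as throughout) of 2.85 (SE 0.037, adjusted p = 1.88e-14). Pdha1, the catalytic alpha subunit of the same enzyme and X-linked, stood at 16.9 ± 0.710 and 85.9 ± 1.28 FPKM (SD, n = 3), 5.08-fold apart. The subunit with the higher FPKM in macrophages thus had the lower FPKM in osteoclasts, an order that depends on the exon lengths used for FPKM. Dlat, the acetyltransferase core, and Dld, the dihydrolipoamide dehydrogenase that also serves the ketoglutarate complex, were 4.42-fold and 4.67-fold higher. Pcx, pyruvate carboxylase, which makes oxaloacetate directly from pyruvate, had the lowest FPKM of the 34 genes, with 1.58 ± 0.0585 FPKM in macrophages against 2.16 ± 0.00979 FPKM in osteoclasts (SD, n = 3). Its difference of 0.29 (SE 0.071, adjusted p = 0.00255) was 0.029 and not called under TPM scaling. About 16.1% of the exon length of Pdha1 overlaps Map3k15 on the other strand, and whether counting used strand is not given in the sources used here.

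Of the 8 genes that handle citrate and isocitrate, 7 were higher in osteoclasts and Idh1 was lower. Citrate synthase (Cs, ENSMUSG00000005683, chromosome 10, 128337734 to 128362479) was tightly grouped in both cell types, at 26.7, 26.3 and 28.2 FPKM in untreated macrophages and 164, 164 and 165 FPKM in untreated osteoclasts. The groups were 6.08-fold apart, with 2.56 (SE 0.034, adjusted p = 2.47e-14) on the log2 scale. Of the isocitrate dehydrogenases, the NAD-linked mitochondrial enzyme that turns the cycle (Idh3a, Idh3b and Idh3g) had all 3 subunits higher, by 6.03-fold for the catalytic Idh3a, 4.70-fold for Idh3b and 3.44-fold for Idh3g. Idh2, the mitochondrial NADP-linked enzyme, was 2.04-fold higher. Idh1 (ENSMUSG00000025950, chromosome 1, 65158616 to 65186500), its cytosolic counterpart and a source of NADPH, went the other way. It stood at 62.7, 61.9 and 58.4 FPKM in untreated macrophages and 40.3, 37.3 and 39.2 FPKM in untreated osteoclasts. Every macrophage library was above every osteoclast library, and the log2 difference was -0.64 (SE 0.041, adjusted p = 2.31e-08), or 1.57-fold lower. Aco1, a cytosolic aconitase that doubles as an iron-regulatory RNA-binding protein, was 2.99-fold higher, and Acly, the cytosolic lyase that splits exported citrate, 1.51-fold higher.

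All 8 genes that lead from ketoglutarate to oxaloacetate were higher in osteoclasts under the 3 scalings tried (as deposited, TPM and quantile normalization). The malate dehydrogenases, which make oxaloacetate and shuttle reducing equivalents, led. Mdh2, the mitochondrial enzyme (ENSMUSG00000019179, chromosome 5, 135778480 to 135790398), stood at 29.7, 33.7 and 33.6 FPKM in untreated macrophages and 319, 333 and 335 FPKM in untreated osteoclasts, 10.2-fold apart and with 3.31 (SE 0.063, adjusted p = 4.9e-13) on the log2 scale. That was the largest among the 34 genes as deposited and under TPM scaling, while under quantile normalization Acaa2 was at 3.10 and Mdh2 at 3.08. Mdh1, the cytosolic enzyme (ENSMUSG00000020321, chromosome 11, 21556787 to 21572367), stood at 52.4, 54 and 56 FPKM and 345, 352 and 346 FPKM, 6.42-fold apart. For both genes every osteoclast library was above every macrophage library. Ogdh and Dlst, parts of the ketoglutarate dehydrogenase complex, were 3.26-fold and 3.74-fold higher. Fh1, fumarate hydratase, was 3.27-fold higher. Of the succinyl-CoA ligase subunits, the shared alpha subunit Suclg1 was 3.89-fold higher, the ADP-forming Sucla2 2.19-fold and the GDP-forming Suclg2 1.67-fold.

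Of the 13 genes of fatty acid oxidation, 11 were higher in osteoclasts, with a median log2 difference of 1.16 against 1.82 for the 21 genes of pyruvate entry and the TCA cycle. Acaa2, the mitochondrial thiolase that cuts off acetyl-CoA (ENSMUSG00000036880, chromosome 18, 74779197 to 74806208), stood at 19.1, 20.4 and 20.4 FPKM in untreated macrophages and 194, 201 and 197 FPKM in untreated osteoclasts. This was 9.89-fold, with 3.24 (SE 0.040, adjusted p = 1.38e-14) on the log2 scale. The acyl-CoA dehydrogenases for medium (Acadm), long (Acadl) and very long chains (Acadvl) were 2.52-fold, 1.91-fold and 2.37-fold higher, and the 2 subunits of the trifunctional protein, Hadha and Hadhb, 1.80-fold and 3.38-fold. Hadh, the hydroxyacyl-CoA dehydrogenase for shorter chains, measured 9.65, 10.2 and 9.74 FPKM in macrophages against 8.88, 10.4 and 9.72 FPKM in osteoclasts. The groups overlapped, and its difference was -0.028 with a 95% interval of -0.15 to 0.093. Under TPM scaling it was -0.44 and called. Echs1, the enoyl-CoA hydratase of shorter chains, was 1.44-fold higher, and its log2 difference of 0.47 became 0.10, not called, under TPM scaling. About 42.9% of the exon length of Acadvl overlaps Dvl2 on the other strand.

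The carnitine shuttle split. Cpt1a (ENSMUSG00000024900, chromosome 19, 3322334 to 3385733), the outer-membrane carnitine palmitoyltransferase whose activity limits fatty acid entry, stood at 39.2, 38.2 and 38 FPKM in untreated macrophages and 29.3, 27.1 and 28 FPKM in untreated osteoclasts, a log2 difference of -0.44 (SE 0.042, adjusted p = 1.15e-06). Cpt2, its inner-membrane partner (ENSMUSG00000028607, chromosome 4, 107903981 to 107923610), stood at 7.36, 6.76 and 7.25 FPKM and 19.5, 19.7 and 19.96 FPKM, with a difference of 1.35 (SE 0.076, adjusted p = 6.33e-09). All macrophage libraries were above all osteoclast libraries for Cpt1a, and below them for Cpt2. The electron transfer flavoprotein genes were all higher in osteoclasts. Etfdh, the oxidoreductase that hands the electrons to ubiquinone, was 5.27-fold higher, and the flavoprotein subunits Etfa and Etfb were 3.08-fold and 1.74-fold higher. About 53.0% of the exon length of Etfb is shared on the same strand with Gm45233, which was at 0 in every library.

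Because a ratio of 2 genes within a library is the same as deposited and under TPM scaling, though not under quantile normalization, 10 pairs of related genes were compared as log2 ratios of FPKM. In all 10 the osteoclast libraries did not overlap the macrophage libraries, without LPS as well as with it. Over single genes, 81.4% and 83.6% did not overlap in those 2 comparisons. Those shares are of levels and not of ratios, and no share over pairs of genes was computed. The exact permutation test, two-sided, gave p = 0.1 for each, the smallest that 3 against 3 allows, and 0.148 after Benjamini-Hochberg adjustment over 40 ratio tests. Cytosolic Idh1 against mitochondrial Idh2 had log2 ratios of 1.15, 1.03 and 0.97 in untreated macrophages and -0.60, -0.70 and -0.58 in untreated osteoclasts. The cytosolic gene thus had the higher FPKM in macrophages and the lower FPKM in osteoclasts. Acly against Cs, citrate splitting against citrate making, had ratios of 0.60, 0.67 and 0.61 and -1.44, -1.39 and -1.31. The sign again turned between the cell types. Whether a ratio lies above or below 0 depends on the exon lengths used for FPKM, while its shift between groups does not. Cpt1a against Cpt2 had 2.43 ± 0.059 and 0.51 ± 0.064 (SD, n = 3), and kept its sign. Within complexes the balance also moved, Pdha1 against Pdhb from 0.37 ± 0.073 to -0.22 ± 0.027 and Hadha against Hadhb from 0.73 ± 0.077 to -0.18 ± 0.041 (SD, n = 3). Idh3a against Idh3g moved from -1.28 ± 0.064 to -0.47 ± 0.024 and Mdh1 against Mdh2 from 0.75 ± 0.070 to 0.081 ± 0.031 (SD, n = 3).

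**Figure D2:**
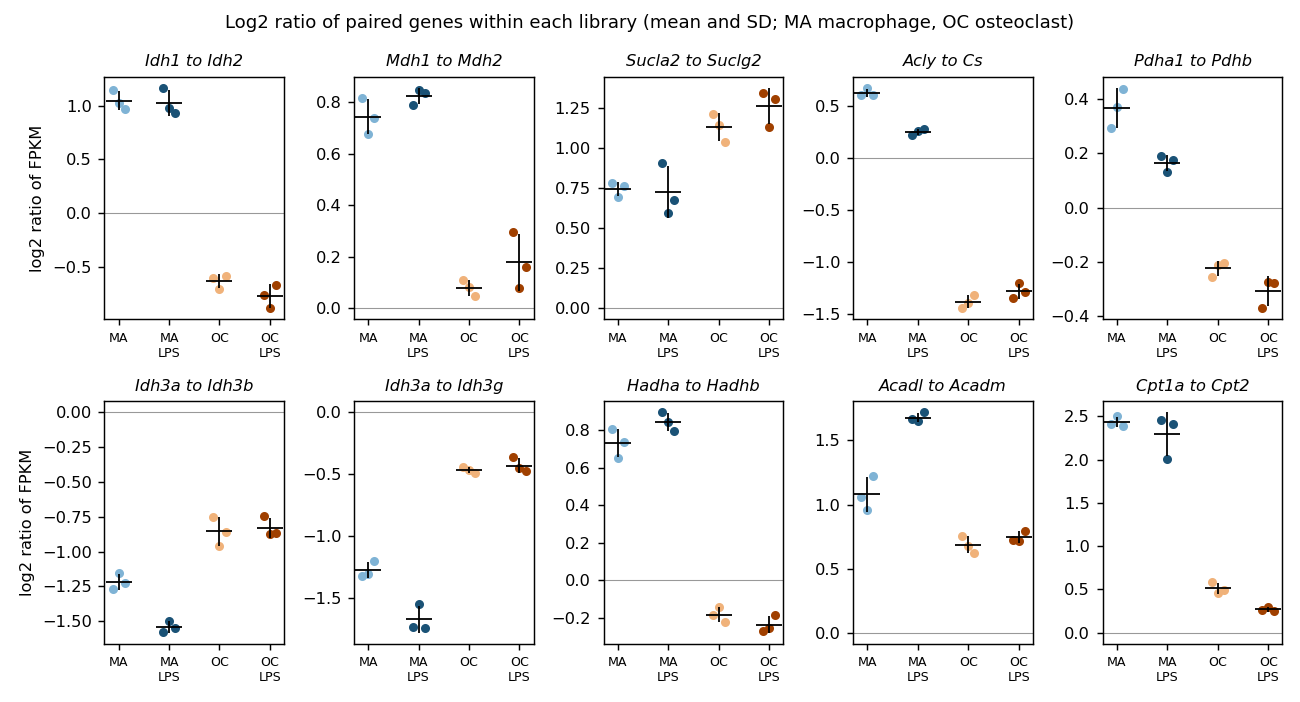
Log2 ratio of FPKM of 2 related genes within each library, 1 panel per pair, with 1 point per library and the mean with SD (n = 3) per group; each panel has its own vertical axis. In every panel the 3 untreated osteoclast libraries do not overlap the 3 untreated macrophage libraries, and the ratio of Idh1 to Idh2 passes from 1.05 to -0.63.

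The order of the genes by level (FPKM, per length) also differed. In untreated macrophages Idh1 came first at 61 FPKM, then Mdh1 at 54.1, Acly at 41.8 and Cpt1a at 38.5 FPKM, and the libraries of these neighbours did not overlap. In untreated osteoclasts Mdh1 came first at 348 FPKM, then Mdh2 at 329, Acaa2 at 197 and Cs at 164 FPKM. Idh1, at 38.9 FPKM, was then below genes that it had exceeded in macrophages, such as Ogdh at 116 and Idh2 at 60.2 FPKM.

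With LPS in both cell types, 31 genes were called higher in osteoclasts, 2 lower (Idh1 and Cpt1a) and Hadh was not called, where 83.9% of all genes were called, 40.9% as higher and 43% as lower. The median log2 difference was 1.47, against -0.016 over all genes. Mdh2 stood at 32.1, 37.2 and 35 FPKM in LPS-treated macrophages and 349, 346 and 317 FPKM in LPS-treated osteoclasts, with a difference of 3.24 (SE 0.063, adjusted p = 4.23e-13). The lower level of Cpt1a, 22, 22.4 and 21.3 FPKM in osteoclasts against 26.2, 24.4 and 24.1 FPKM in macrophages, came to -0.18 (SE 0.042, adjusted p = 0.00201) with no overlap, was -0.025 and not called under TPM scaling and turned to 0.062 under quantile normalization. Idh1 was lower under all 3 scalings, at -0.64 as deposited, -0.50 under TPM scaling and -0.32 under quantile normalization.

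**Figure D3:**
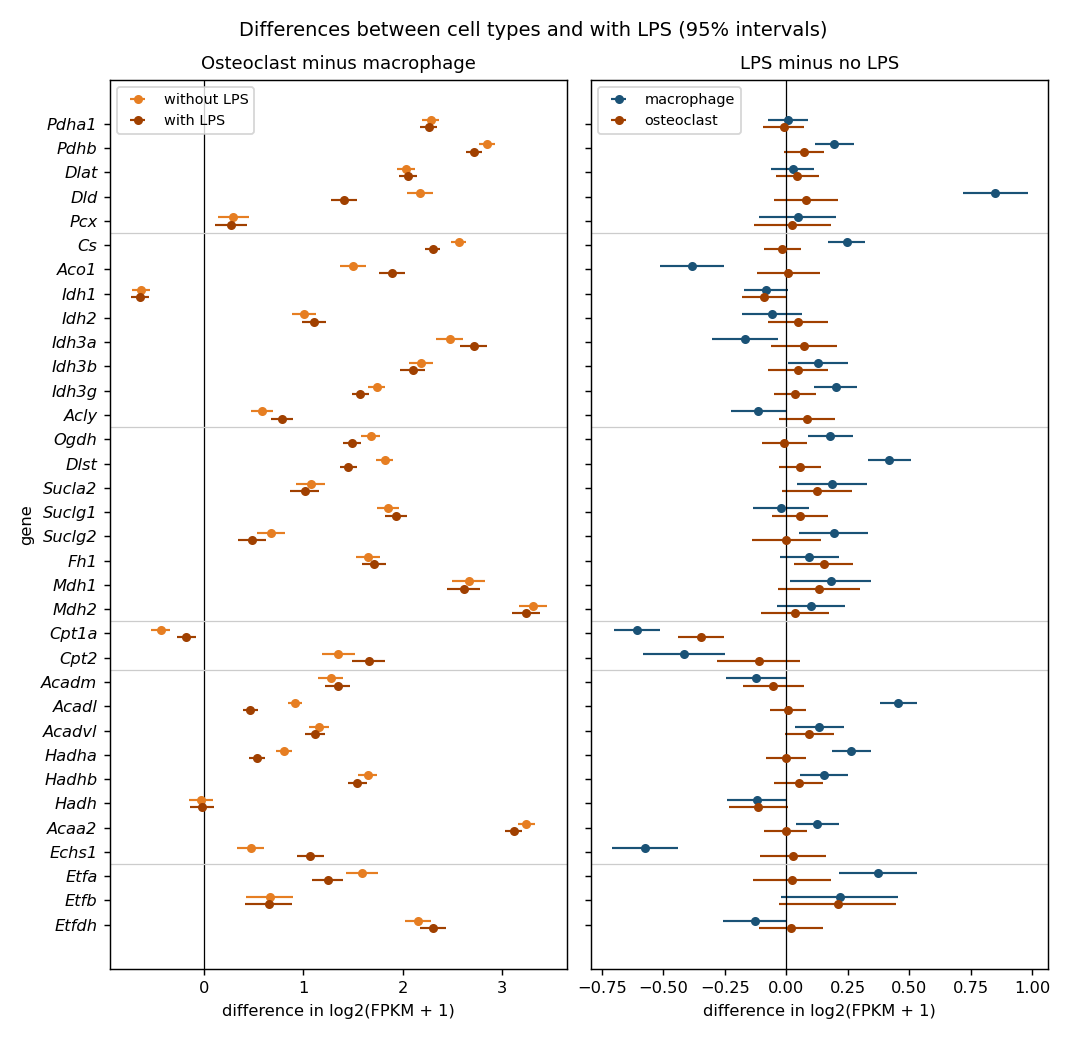
Log2 differences of the 34 genes with 95% intervals, osteoclast minus macrophage on the left (without and with LPS) and LPS minus no LPS on the right (in macrophages and in osteoclasts), on log2(FPKM + 1) as deposited. The left axis spans over 3 log2 units, with Mdh2 at 3.31; on the right, which has a narrower axis, Dld at 0.85 and Cpt1a at -0.61 mark the ends in macrophages, and the osteoclast points lie between -0.35 for Cpt1a and 0.21 for Etfb.

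In macrophages the differences with LPS were small and went both ways. Of the 34 genes, 14 were called higher, 5 lower and 15 not called, where 69.9% of all genes were called, 36.8% as higher and 33.1% as lower. Treated and untreated libraries did not overlap for 21 of the 34 genes (61.8%), against 74% of all genes. The median log2 difference was 0.11, against 0.023 over all genes, and the extremes were 0.85 for Dld and -0.61 for Cpt1a. Most of the small differences depended on the scaling. Under TPM scaling 1 gene was called higher and 33 lower, beside 15.9% and 70% of all genes, with a median of -0.51 beside -0.55 over all genes. Under quantile normalization 2 were called higher and 22 lower, beside 26.9% and 45.8%, with a median of -0.26 beside -0.14. The genes called in the same direction under the 3 scalings were Dld as higher and Aco1, Idh3a, Cpt1a, Cpt2 and Echs1 as lower.

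**Figure D4:**
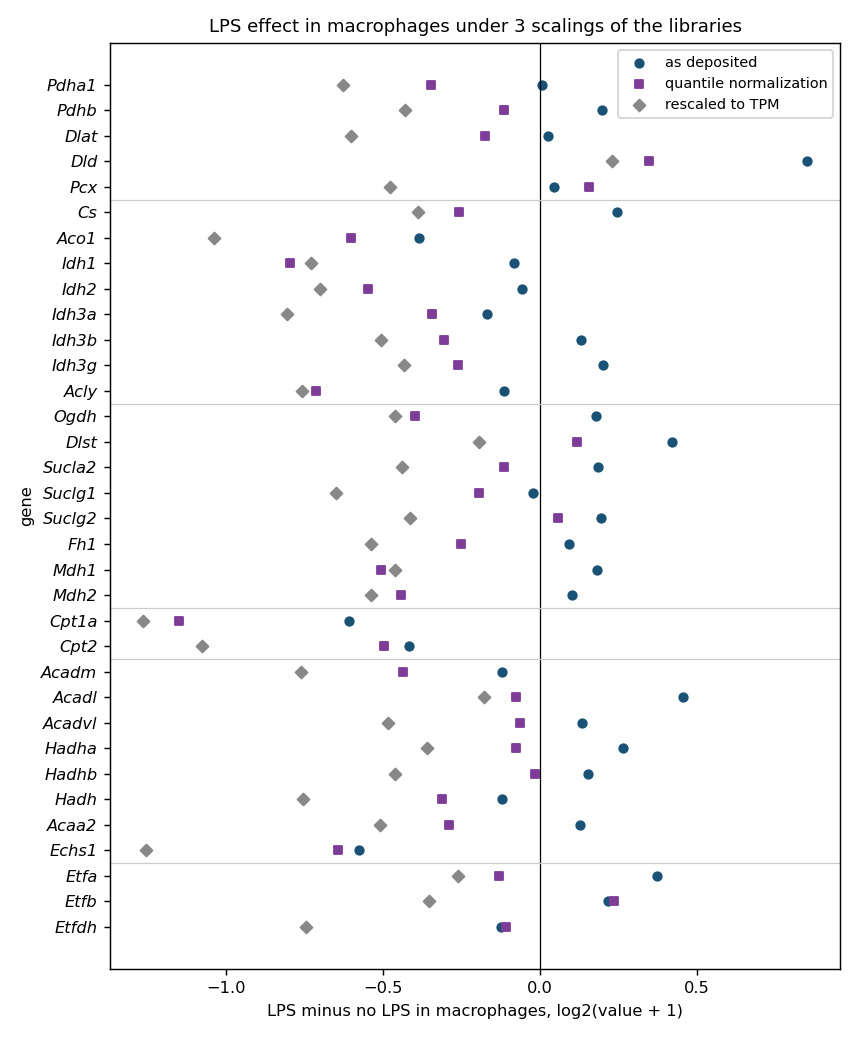
Log2 difference of LPS-treated minus untreated macrophages for the 34 genes under 3 scalings of the libraries: as deposited, under quantile normalization and under TPM scaling. Dld is above 0 under all 3, at 0.85, 0.35 and 0.23, while most genes that lie just above 0 as deposited lie below 0 under TPM scaling.

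Dld (ENSMUSG00000020664, chromosome 12, 31331277 to 31351453), the lipoamide dehydrogenase shared by the pyruvate and ketoglutarate complexes, stood at 19.9, 22.5 and 22.5 FPKM in untreated and 38.6, 39.1 and 41.5 FPKM in LPS-treated macrophages. All treated libraries were above all untreated ones, 1.84-fold on the means, with a log2 difference of 0.85 (SE 0.060, adjusted p = 7.87e-08), 0.23 under TPM scaling and 0.35 under quantile normalization. As deposited, the differences of its partners in those complexes were smaller. Pdha1 stood at 0.0072 (95% interval -0.075 to 0.090) and Dlat at 0.025 (-0.063 to 0.11), neither called as deposited, and Pdhb was called at 0.20 (SE 0.037, adjusted p = 0.000479). In the ketoglutarate complex Dlst, the succinyltransferase, stood at 11.9, 11.7 and 11.9 FPKM untreated and 16, 16.8 and 15.7 FPKM with LPS, a difference of 0.42 (SE 0.039, adjusted p = 1.12e-06), and Ogdh at 0.18 (SE 0.042, adjusted p = 0.00226). All 5 partners were below 0 under TPM scaling, at -0.63 for Pdha1, -0.60 for Dlat, -0.43 for Pdhb, -0.19 for Dlst and -0.46 for Ogdh, where all genes had a median of -0.55.

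Around citrate, Cs was called higher as deposited and Acly did not pass the test. Cs stood at 26.7, 26.3 and 28.2 FPKM untreated and 32.6, 32.1 and 32.1 FPKM with LPS (0.25, SE 0.034, adjusted p = 4.02e-05), and Acly at 40.6, 41.9 and 42.9 and 38.1, 38.5 and 39 FPKM (-0.11, SE 0.052, adjusted p = 0.067, not called). Both were called lower under the other scalings, Cs at -0.39 and Acly at -0.76 under TPM scaling and at -0.26 and -0.71 with quantile values. As a ratio of the deposited values, Acly to Cs went from 0.60, 0.67 and 0.61 to 0.23, 0.26 and 0.28 on the log2 scale, with no overlap. Aco1 fell from 11.3, 11.7 and 12.5 to 8.76, 9.48 and 8.29 FPKM (-0.38, SE 0.059, adjusted p = 9.04e-05), and did so under the 3 scalings. Within the NAD-linked isocitrate dehydrogenase the catalytic Idh3a was called lower (-0.17, SE 0.062, adjusted p = 0.0278) and the regulatory Idh3g higher as deposited (0.20, SE 0.039, adjusted p = 0.00064) but lower under TPM scaling (-0.43). The log2 ratio of Idh3a to Idh3g went from -1.33, -1.31 and -1.21 to -1.74, -1.55 and -1.74, again without overlap. The call of Idh3a was lost without any 1 of MA_NT replicates 2 and 3 and MA_LPS replicates 1 and 3 (log2 differences of -0.17 to -0.12, adjusted p of 0.0555 to 0.112). Idh1 and Idh2 were at -0.083 and -0.058, not called as deposited and called lower under TPM scaling, at -0.73 and -0.70.

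From succinyl-CoA to oxaloacetate, Sucla2 (0.19, SE 0.066, adjusted p = 0.0243) and Suclg2 (0.19, SE 0.064, adjusted p = 0.0177) were called higher as deposited, and were at -0.44 and -0.41 under TPM scaling. Their libraries overlapped between the groups. The call of Sucla2 was lost without any 1 of MA_NT replicates 1 and 2 and MA_LPS replicates 1 and 3 (0.14 to 0.18, adjusted p of 0.0636 to 0.0984), and that of Suclg2 without MA_NT replicate 1 or MA_LPS replicate 3 (0.14 each, adjusted p of 0.0798 and 0.0821). Suclg1, Fh1, Mdh1 and Mdh2 were not called as deposited, at -0.022, 0.092, 0.18 and 0.10.

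In fatty acid oxidation both genes of the carnitine shuttle fell with LPS in macrophages. Cpt1a went from 39.2, 38.2 and 38 to 26.2, 24.4 and 24.1 FPKM, 1.54-fold lower (-0.61, SE 0.042, adjusted p = 7.48e-08), and Cpt2 from 7.36, 6.76 and 7.25 to 4.75, 6.08 and 4.52 FPKM, 1.39-fold lower (-0.42, SE 0.076, adjusted p = 0.000383). No treated library reached an untreated one for either gene, although MA_LPS replicate 2 was the highest treated library for Cpt2. Echs1 fell as well, from 7.13, 6.78 and 6.57 to 4.04, 4.46 and 4.28 FPKM (-0.57, SE 0.061, adjusted p = 3.6e-06). These 3 were lower under the 3 scalings. Acadl went the other way as deposited, from 29.3, 30.1 and 31.4 to 42, 41.4 and 42.1 FPKM (0.45, SE 0.034, adjusted p = 1.44e-07), and was -0.18 under TPM scaling and -0.077 under quantile normalization. Its log2 ratio to Acadm, the medium-chain enzyme, was 1.06, 0.96 and 1.22 untreated and 1.67, 1.65 and 1.72 with LPS, with no overlap. Of the 10 ratios 5 did not overlap between untreated and LPS-treated macrophages, and the other 5 overlapped, among them Cpt1a to Cpt2 and Idh1 to Idh2. Each of the 5 without overlap had an exact permutation p of 0.1, two-sided, or 0.148 after adjustment over the 40 tests. Levels of single genes, a different measure, did not overlap for 74% of all genes in that comparison. Hadha (0.26, SE 0.036, adjusted p = 3.68e-05), Hadhb (0.15, SE 0.045, adjusted p = 0.00956) and Etfa (0.37, SE 0.072, adjusted p = 0.00061) were also called higher as deposited and turned below 0 under both other scalings, to -0.36, -0.46 and -0.26 under TPM scaling. Acadvl and Acaa2 were called at 0.13 and 0.13 as deposited and were at -0.48 and -0.51 under TPM scaling. The call of Acadvl was lost without MA_NT replicate 1, MA_NT replicate 3 or MA_LPS replicate 1 (0.099 to 0.12, adjusted p of 0.0632 to 0.0814), and that of Acaa2 without replicate 1 of MA_NT or of MA_LPS (0.095 and 0.10, adjusted p of 0.0530 and 0.0630).

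In osteoclasts 1 of the 34 genes was called with LPS as deposited. Under TPM scaling 3 were called, all lower (Cpt1a, Idh1 at -0.16 and Hadh at -0.19), where 10.8% of all genes were called lower and 8.29% higher. Under quantile normalization 4 were called, all lower (these 3 and Cs at -0.12), where 13.4% of all genes were called lower and 8.35% higher. Cpt1a fell from 29.3, 27.1 and 28 to 22, 22.4 and 21.3 FPKM, 1.29-fold lower, with no overlap and a log2 difference of -0.35 (SE 0.042, adjusted p = 0.000117) that held under the 3 scalings (-0.43 under TPM scaling and -0.43 under quantile normalization). At an unadjusted p below 0.05 were 1 gene above 0 (Fh1) and 2 below 0 (Cpt1a and Idh1), and voom called 1 above and 1 below. After adjustment none of the other 33 passed the limma test as deposited, so that 2.94% of these genes were called where 17.7% of all genes were, 11.1% as higher and 6.59% as lower. The median log2 difference was 0.030, against 0.0055 over all genes, and the values ran from -0.35 for Cpt1a to 0.21 for Etfb. Cpt2 stood at 19.5, 19.7 and 19.96 FPKM untreated and 18.4, 18.2 and 17.9 FPKM with LPS; its libraries did not overlap, and its difference was -0.11 (SE 0.076, adjusted p = 0.354). Fh1 stood at 52.5, 50.4 and 48.2 FPKM untreated and 59, 55.5 and 53.9 FPKM with LPS, again without overlap (0.15, SE 0.055, adjusted p = 0.0787), and limma's voom on the recovered reads called it higher. For 7 of the 34 genes (20.6%) treated and untreated libraries did not overlap, against 34% of all genes. Of the 10 log2 ratios 2 did not overlap, Pdha1 to Pdhb at a difference of -0.083 and Cpt1a to Cpt2 at -0.24. Each had an exact permutation p of 0.1, two-sided, or 0.148 after adjustment over the 40 tests. For the genes that LPS had moved in macrophages under the 3 scalings, the 95% intervals in osteoclasts were -0.050 to 0.21 for Dld, -0.12 to 0.14 for Aco1, -0.063 to 0.21 for Idh3a and -0.11 to 0.16 for Echs1. Over the 34 genes, summed levels were 2414, 2456 and 2454 FPKM without LPS and 2600, 2531 and 2409 FPKM with it. The groups overlapped.

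Whether the LPS difference of a gene itself differed between the cell types was tested as an interaction, the LPS difference in osteoclasts minus that in macrophages. It was called for 14 of the 34 genes as deposited, 6 above 0 and 8 below, where 56.6% of all genes were called, 26.6% above 0 and 30% below. Under TPM scaling 32 were above 0 and 1 below, beside 63.3% and 13.9% of all genes. Under quantile normalization 19 were above and 2 below, beside 36.1% and 24.1%. Below 0 as deposited were Dld (-0.77, SE 0.084, adjusted p = 8.81e-06), Acadl, Dlst, Etfa, Hadha, Cs, Ogdh and Idh3g, which were higher with LPS in macrophages as deposited and not called in osteoclasts. Only Dld stayed below 0 and called under the 3 scalings, at -0.22 under TPM scaling and -0.36 under quantile normalization, and the other 7 turned above 0 under TPM scaling, where the median of all genes was 0.51. Above 0 under the 3 scalings were Echs1 (0.60, SE 0.086, adjusted p = 8.35e-05), Aco1 (0.39, SE 0.083, adjusted p = 0.00162), Cpt2 (0.30, SE 0.11, adjusted p = 0.0306), Cpt1a (0.26, SE 0.060, adjusted p = 0.00286), Idh3a (0.24, SE 0.087, adjusted p = 0.0329) and Acly (0.20, SE 0.073, adjusted p = 0.0357). For Cpt1a the sign means a smaller fall in osteoclasts, since it fell in both cell types.

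Several of these calls were lost when 1 library was left out. That of Cpt2 was lost in 7 of 12 fits that each left out 1 library (MA_NT replicates 1 and 3, MA_LPS replicates 1 and 3, OC_NT replicates 1 and 2, OC_LPS replicate 1), with values of 0.23 to 0.30 and adjusted p of 0.0546 to 0.0711. That of Acly was lost in 7 (MA_NT replicates 2 and 3, MA_LPS replicates 1 and 2, OC_NT replicates 1 and 2, OC_LPS replicate 2), at 0.14 to 0.20 and 0.0589 to 0.0881. That of Idh3a was lost in 8 (MA_NT replicates 2 and 3, MA_LPS replicates 1 and 3, OC_NT replicates 2 and 3, OC_LPS replicates 1 and 2), at 0.19 to 0.25 and 0.0545 to 0.0816. That of Idh3g was lost in 4 (MA_NT replicate 1, MA_LPS replicate 3, OC_NT replicate 1, OC_LPS replicate 3), at -0.16 to -0.13 and 0.0537 to 0.0614. The count above 0 fell from 6 to 3 without MA_NT replicate 3, without MA_LPS replicate 1 or without OC_NT replicate 2. The LPS comparisons and the cell type comparisons share groups with each other and with the interaction, so their values are given side by side and were not correlated.

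Other genes of the same metabolism were taken from 7 lists of 79 genes, also chosen with earlier results of these data known, of which 68 passed the filter. Without LPS, 45 of the 68 were higher in osteoclasts and 14 lower, beside 38.8% and 39% of all genes, and under TPM scaling 38 were higher and 25 lower, beside 24.3% and 57%. The remaining TCA genes, which include the succinate dehydrogenase assembly factors Sdhaf1 and Sdhaf2, were higher, 7 of 7 as deposited and 6 of 7 under TPM scaling. Sdha, the flavoprotein subunit of succinate dehydrogenase, stood at 47.1, 48.3 and 46.5 FPKM in untreated macrophages and 242, 258 and 254 FPKM in untreated osteoclasts (2.38, SE 0.039, adjusted p = 1.52e-13). Of 16 further genes of beta-oxidation, all 16 were higher, led by Acad10 (3.05, SE 0.055, adjusted p = 3.27e-13). Of 11 partners of pyruvate dehydrogenase 9 were higher, among them Pdk1 (2.06, SE 0.050, adjusted p = 3.13e-12), a kinase that inhibits the complex, and Mpc2 (1.90, SE 0.071, adjusted p = 1.39e-10), a subunit of the mitochondrial pyruvate carrier. Fatty acid synthesis ran opposite without LPS, with 5 of 6 genes lower and a median log2 difference of -1.30. With LPS in both cell types 2 were higher and 3 lower, beside 40.9% and 43% of all genes, with a median of -0.23. The desaturase Scd2 was at -1.72 in osteoclasts against macrophages without LPS and at 1.02 with LPS. Fasn, the fatty acid synthase, stood at 19.6, 20.5 and 20.2 FPKM in untreated macrophages and 3.51, 4.06 and 4.08 FPKM in untreated osteoclasts (-2.11, SE 0.092, adjusted p = 5.74e-10). The gene of that list that was higher without LPS was Mlycd (0.93, SE 0.086, adjusted p = 7.73e-07), which removes malonyl-CoA, an inhibitor of Cpt1a. Of 11 genes of fatty acid uptake and activation 5 were higher and 1 lower as deposited, and 2 higher and 8 lower under TPM scaling. Cd36, a fatty acid receptor of that list, was far lower, at 26, 19.9 and 23.6 FPKM in untreated osteoclasts against 418, 459 and 480.1 FPKM in untreated macrophages (-4.23, SE 0.19, adjusted p = 7.48e-10), and Slc25a20, the carnitine carrier between Cpt1a and Cpt2, was higher (1.09, SE 0.046, adjusted p = 4.06e-10).

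Among regulators, the coactivator Ppargc1b, known for its part in mitochondrial biogenesis in osteoclasts, stood at 1.57, 1.55 and 1.52 FPKM in untreated macrophages and 21.4, 20.2 and 24.3 FPKM in untreated osteoclasts (3.17, SE 0.063, adjusted p = 6.41e-13). Esrra, an oestrogen-related receptor that it coactivates, differed by 1.37 (SE 0.061, adjusted p = 6.63e-10), while Pparg (-2.51, SE 0.10, adjusted p = 1.67e-10) and Nrf1 (-0.43, SE 0.067, adjusted p = 7.76e-05) were lower in osteoclasts. With LPS in macrophages 20 of the 68 genes were higher and 27 lower, beside 36.8% and 33.1% of all genes. Under TPM scaling 7 were higher and 56 lower, beside 15.9% and 70% of all genes, and 7 higher and 25 lower were called in the same direction under the 3 scalings. Acod1, which makes itaconate from cis-aconitate, went from 0.888, 0.827 and 0.890 to 2335, 2084 and 2134 FPKM in macrophages (10.19, SE 0.15, adjusted p = 1.3e-13) and from 0.351, 0.429 and 0.695 to 213, 133 and 215 FPKM in osteoclasts (6.95, SE 0.15, adjusted p = 1.79e-10), with an interaction of -3.24 (adjusted p = 1.1e-07). Ppargc1b rose with LPS in macrophages, to 7.79, 7.36 and 7.40 FPKM (1.74, SE 0.063, adjusted p = 1.5e-10), and was at -0.0031 (95% interval -0.14 to 0.13) in osteoclasts. Genes that attach fatty acids to coenzyme A split, with Acsl1 higher (1.94, SE 0.056, adjusted p = 2.05e-11) and Acsl3 lower (-2.10, SE 0.074, adjusted p = 1.18e-10). Of the 6 genes on the fatty acid synthesis list 5 fell in macrophages, Mlycd among them (-1.06, SE 0.086, adjusted p = 3.2e-07), with Scd2, a desaturase, at 35, 35.4 and 37.7 and 4.54, 4.89 and 5.25 FPKM (-2.65, SE 0.062, adjusted p = 3.51e-12) and Fasn at -1.43 (adjusted p = 3.58e-08). In osteoclasts 8 of the 68 genes were called with LPS, 5 higher and 3 lower, beside 17.7% of all genes, and 3 higher and 8 lower under TPM scaling, beside 8.29% and 10.8%.

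**Figure D5:**
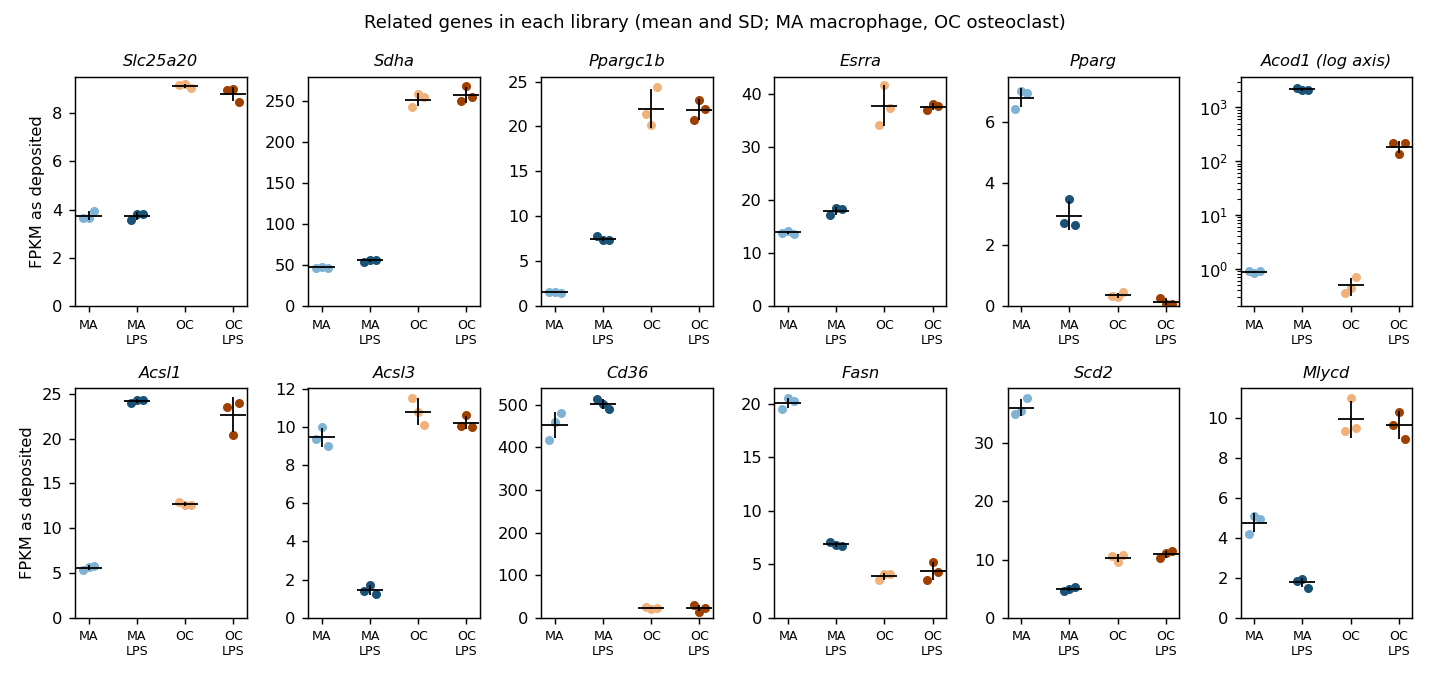
Deposited FPKM of 12 related genes in each library, 1 panel per gene with its own axis (log for Acod1, linear from 0 for the others), with 1 point per library and the mean with SD (n = 3). Slc25a20, Sdha, Ppargc1b and Esrra are higher in osteoclasts, Cd36, Fasn and Pparg are lower, and Acod1 goes from 0.868 to 2184 FPKM with LPS in macrophages.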

How the data were processed

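The authors deposited 1 table of FPKM values for 54532 Ensembl genes in 12 libraries. The submitters' processing notes name fastp, STAR, featureCounts, DESeq2 and build mm10, without roles or versions; the annotation, strandedness and handling of reads that map to several genes are not given in the sources used here. Per the values, the deposited FPKM denominators followed median-of-ratios scaling, and whole reads could be recovered within a tolerance of 0.02 of a read for 25854 genes, using GENCODE M21 exon lengths for 96.7% of them. Symbols and coordinates came from GENCODE M21 (GRCm38), and promoters from RefSeq (GRCm38.p6).

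Genes with at least 1 FPKM in 3 or more libraries were tested with limma 3.58.1 (R 4.3.3) on log2(FPKM + 1), which understates fold changes of low genes. One fit of 4 group means with a variance trend gave 5 contrasts, two-sided, with Benjamini-Hochberg adjustment over 11335 genes and a threshold of 0.05. The fit was also run on simulated counts with no cell type difference and fewer changed genes than were called here. That setting differs from these data, and its outcome is not reported here. Folds are ratios of mean FPKM. Ratios of 2 genes were tested by exact permutation over samples. Members and lists were chosen with earlier results of these data known. Of the other lists, up to 4 called genes per list and contrast with the largest differences and no overlap, and Acod1, could be named; a gene that this rule also named is not reported here. The 13 alternative settings covered the pseudocount, filters, TPM, quantile normalization, a replicate block, the groups fitted, library weights, the variance trend, voom on recovered reads and each library left out.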

Additional observations from a re-analysis of the deposited data

Results flagged for a closer look

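The difference in LPS response between the cell types was called by limma for 14 of the 34 genes, and each is listed because the interaction itself passed the test. It was below 0 for Dld (-0.77), Acadl (-0.45), Dlst (-0.36), Etfa (-0.35), Hadha (-0.27), Cs (-0.26), Ogdh (-0.19) and Idh3g (-0.16). It was above 0 for Echs1 (0.60), Aco1 (0.39), Cpt2 (0.30), Cpt1a (0.26), Idh3a (0.24) and Acly (0.20). Over all genes 56.6% were called as deposited, against 41.2% of these genes. Under TPM scaling 33 of the 34 were called, 32 above 0, beside 8747 of all 11335 genes. Dld and the 6 genes above 0 were called in the same direction as deposited, under TPM scaling and under quantile normalization.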

How the results depend on the processing

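Rescaling to TPM and quantile normalization turned the sign of the called differences listed here and of Mdh1, which was not called as deposited, as well as of other uncalled members; values follow as TPM and then quantile. For LPS in macrophages they were -0.43 and -0.11 for Pdhb, -0.39 and -0.26 for Cs, -0.43 and -0.26 for Idh3g, -0.46 and -0.40 for Ogdh, -0.44 and -0.12 for Sucla2, -0.46 and -0.50 for Mdh1, -0.18 and -0.077 for Acadl, -0.48 and -0.063 for Acadvl, -0.36 and -0.075 for Hadha, -0.46 and -0.016 for Hadhb, -0.51 and -0.29 for Acaa2 and -0.26 and -0.13 for Etfa. By TPM alone Dlst was at -0.19 and Suclg2 at -0.41. For the interaction they were 0.30 and 0.13 for Cs, 0.40 and 0.21 for Idh3g, 0.38 and 0.28 for Ogdh and 0.22 and 0.050 for Etfa, and by TPM alone 0.18 for Dlst, 0.12 for Acadl and 0.29 for Hadha. Cpt1a in osteoclasts against macrophages with LPS was 0.062 by quantile normalization. Members called numbered 34 under TPM scaling for LPS in macrophages (19 as deposited) and 33 for the interaction (14), with 9730 and 8747 of all 11335 genes called, and for LPS in osteoclasts 3 after TPM, 4 after quantile normalization and 2 in voom (1). With a mean of at least 5 FPKM, fewer genes were tested, and all genes called fell to 4851 for LPS in macrophages, 5427 and 5694 for the cell types without and with LPS, and 4018 for the interaction. With a pseudocount of 1 the osteoclast minus macrophage log2 ratio was 0.74 for Idh3a to Idh3g and -1.79 for Cpt1a to Cpt2. Leaving out 1 library at a time gave 15 to 20 members called for LPS in macrophages, 1 for LPS in osteoclasts, 33 in both cell type comparisons and 11 to 13 for the interaction. The cause of these changes was not tested beyond what each setting does by construction. The labels do not say whether the replicate number in the titles pairs the libraries. Correlations of deviations between libraries of the same number were -0.070 to 0.10 over 18 pairs. Among libraries of other groups, 7 of 12 libraries correlated best with one of their own number. Pairing was not tested beyond these values. With the number as a replicate block only Idh3a lost a call, its interaction of 0.24 having an adjusted p of 0.0512 in limma. No count moved by over 1.5 times with that block. Of 2184 recomputed values of member differences called as deposited, 36 reversed, 59 lost the call and 2089 kept direction and call; of 1517 recomputed values of those not called, 94 gained a call.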
